A study of Mus musculus with 12 samples.

Results

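The cells described here are kidney epithelial cells from C57BL/6 mice that lack the stress-activated kinases JNK1 and JNK2. After 4 hours in suspension, 61.6% of 12165 tested genes passed the threshold defined below for a change from attached cells. Changes of at least 2-fold were fewer, with 1424 rises and 1603 falls. The metallothionein genes Mt1 and Mt2, most NRF2 targets and most lysosomal genes rose. YAP targets, feedback genes of ERK signalling, sterol synthesis genes and interferon-induced genes mostly fell. The account below covers the comparison of attached with suspended JNK-deficient cells and takes each entry of the authors' deposited table with at least 1 FPKM in one of these groups, 12201 of 31026 entries. FPKM is a level scaled by transcript length and library size, and each entry is called a gene here.

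JNK-deficient cells are labelled Jnk1-/- Jnk2-/- and were made from Jnk1flox/flox Jnk2-/- Rosa-CreER cells, and control cells carried Rosa-CreER alone, so every group carried that Cre. Both genotypes were sampled attached, as monolayers, and after 4 hours in suspension, which gives 4 groups of 3 samples and 12 samples in all. Nothing in the labels tells separate cultures or animals from repeats within a group, so the authors' p-values may measure technical spread, and the number of animals behind the cells is not stated. Each FPKM below is the authors' single value for a group, with no SD and no value per sample, so whether the samples of the groups overlap cannot be seen and the depth per sample is unknown. A gene is said to have risen or fallen where the q-value (a p-value adjusted over all genes) of the authors' deposited table was below 0.05. Where no q-value is printed beside such a gene it was 0.000144, the lowest in the authors' deposited table, shared by 4506 genes.

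Of 9 kidney epithelial markers, 8 were at 1 FPKM or more in both states, with a summed level of 3036 FPKM attached and 2245 FPKM suspended; Lhx1 was near 0. Mapk8, which encodes JNK1, was at 2.27 FPKM attached and 2.39 FPKM suspended (log2 fold change 0.07, q = 0.808 in the authors' deposited table), beside 9.32 and 10.7 FPKM in control cells. Mapk9, which encodes JNK2, rose from 8.94 to 16.5 FPKM (log2 fold change 0.89), beside 13.6 and 28.7 FPKM in control cells. The tables give no value per exon, so RNA from the remaining exons of either gene was counted with the rest. In the authors' deposited tables that compare genotypes both genes were lower in JNK-deficient than in control cells, Mapk8 by a log2 fold change of -1.95 attached and -2.11 suspended, and Mapk9 by -0.52 and -0.74. Of 16 tested genes for JNK, its upstream kinases, its scaffolds and p38, 6 rose and 5 fell (6 and 3 after correction for GC content and length). The uncorrected shares, 37.5% and 31.25%, were near the 31% and 30.6% of all tested genes. Map3k11, a kinase that activates the cascade, fell from 23 to 3.65 FPKM (log2 fold change -2.65), a call not kept after correction (-1.29).

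Epithelial cells receive survival signals through integrins, receptors that bind the matrix and act through focal adhesions on the ERK and PI3K-AKT pathways. When these signals are lost, FOXO factors become active, BH3-only proteins can start the death called anoikis, and loss of cell tension keeps the coactivators YAP and MRTF out of the nucleus. Zinc and oxidants act on other factors, MTF1 through metal response elements and NRF2 through antioxidant response elements. JNK phosphorylates AP-1 and BH3-only proteins, and the series was designed to ask what JNK does in anoikis.

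The promoters of 5 genes described below show these elements and those of the interferon response and of SRF. The sequences are from RefSeq (GRCm38.p6), 250 bases before to 50 bases after the gene's start, 5′ to 3′ on the gene's strand, with the matches in capitals. Mt2 and Mt1 encode metallothioneins, small proteins that bind zinc, and capitals mark the metal response element (TGCNCNC on either strand), with 6 matches in Mt2 and 3 in Mt1. Srxn1 encodes sulfiredoxin, which repairs oxidised peroxiredoxins, and capitals mark the antioxidant response element (TGACNNNGC on either strand), with 1 match. Isg15 encodes a ubiquitin-like protein of the interferon response, and capitals mark the interferon response element (GAAA repeated after 2 bases, on either strand), with 3 matches that overlap. Srf encodes serum response factor, and capitals mark the CArG box, with 2 matches.
Mt2 (chr8:94172368-94172667, + strand): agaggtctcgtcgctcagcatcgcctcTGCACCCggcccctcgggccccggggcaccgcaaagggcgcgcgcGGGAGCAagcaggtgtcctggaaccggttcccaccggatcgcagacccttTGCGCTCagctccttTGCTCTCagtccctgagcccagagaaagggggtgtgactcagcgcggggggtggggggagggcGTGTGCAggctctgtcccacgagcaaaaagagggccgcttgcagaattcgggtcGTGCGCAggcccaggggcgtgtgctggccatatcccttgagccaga
Mt1 (chr8:94178839-94179138, + strand): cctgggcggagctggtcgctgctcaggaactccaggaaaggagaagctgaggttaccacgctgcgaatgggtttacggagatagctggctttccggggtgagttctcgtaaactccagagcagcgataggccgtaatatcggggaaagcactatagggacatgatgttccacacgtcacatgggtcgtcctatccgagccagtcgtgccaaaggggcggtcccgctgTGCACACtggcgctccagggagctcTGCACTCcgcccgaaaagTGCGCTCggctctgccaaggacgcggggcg
Srxn1 (chr2:152105274-152105573, + strand): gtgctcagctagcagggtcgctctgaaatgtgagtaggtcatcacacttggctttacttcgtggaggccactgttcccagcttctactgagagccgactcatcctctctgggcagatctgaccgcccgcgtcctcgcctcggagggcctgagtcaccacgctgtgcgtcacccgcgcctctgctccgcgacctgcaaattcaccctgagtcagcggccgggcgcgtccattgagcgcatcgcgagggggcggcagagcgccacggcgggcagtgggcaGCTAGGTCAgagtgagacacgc
Isg15 (chr4:156200769-156201068, - strand): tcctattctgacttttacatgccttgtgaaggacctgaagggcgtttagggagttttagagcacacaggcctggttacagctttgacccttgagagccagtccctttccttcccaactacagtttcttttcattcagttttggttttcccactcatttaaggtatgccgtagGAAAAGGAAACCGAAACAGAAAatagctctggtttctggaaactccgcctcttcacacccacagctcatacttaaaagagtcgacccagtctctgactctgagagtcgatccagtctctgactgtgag
Srf (chr17:46556113-46556412, - strand): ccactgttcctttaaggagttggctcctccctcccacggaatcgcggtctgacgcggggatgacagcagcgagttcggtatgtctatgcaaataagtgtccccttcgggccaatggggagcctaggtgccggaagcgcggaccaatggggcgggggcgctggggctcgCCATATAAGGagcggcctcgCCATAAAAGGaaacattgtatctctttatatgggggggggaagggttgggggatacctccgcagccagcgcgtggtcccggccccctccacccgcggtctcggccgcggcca

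Each gene list was matched to these RefSeq promoters. The metal response element was in 10 of 10 promoters found for the zinc genes (100%), against 53.6% of all 27025 promoters. An antioxidant response element was in 7 of 22 promoters of NRF2 targets (31.8%), against 14.0% of all promoters. The interferon response element was in 12 of 21 promoters of interferon-induced genes (57.1%), against 3.99% of all. A CArG box was in 8 of 22 promoters of the SRF and actin genes (36.4%), against 1.81% of all. The motif of TEAD, the DNA-binding partner of YAP (GGAATG), was in 7 of 16 promoters of YAP targets (43.8%), against 16.6% of all. The E-box that TFEB and its relatives bind (CACGTG) was in 11 of 29 promoters of lysosomal genes (37.9%), against 8.09% of all. These matches describe letters within 300 bases of each start, searched on both strands, and say nothing about which factor was bound. The lists were drawn up around these factors, with earlier results known, so their higher shares are no result about suspension.

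The response was broad, with nearly equal numbers of rises and falls. FPKM is scaled by library size, so a rise or fall of all RNA together could not show. The part of this scaling in the balance was not tested. Of 12165 genes tested by the authors, 7495 changed (61.6%), 3773 higher (31%) and 3722 lower (30.6%) in suspended cells, and 4670 did not pass. The median log2 fold change was 0.017, with quartiles of -0.59 and 0.55. At least 2-fold changes were found for 1424 genes that rose and 1603 that fell, and at least 4-fold changes for 446 and 443. At the far end rises outnumbered falls, with 159 against 110 genes at 8-fold, 70 against 35 at 16-fold and 32 against 11 at 32-fold. A further 36 genes were not tested, and 25 of the calls had a group listed at 0, where no fold is given. Near the limit of 1 FPKM, 46 of 114 genes between 1 and 1.1 FPKM changed, and of 128 entries just below it, between 0.9 and 1 FPKM, 48 passed. In these bulk samples, fewer cells of a type and less RNA per cell cannot be told apart.

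**Figure D1:**
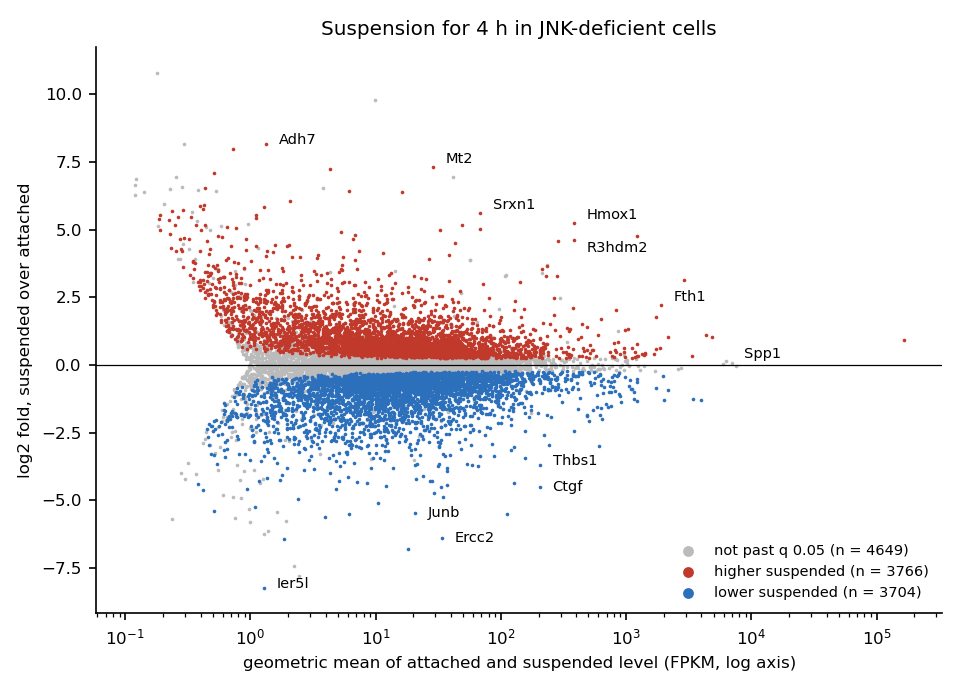
Log2 fold change of suspended over attached JNK-deficient cells (vertical axis) against the geometric mean of both levels in FPKM (horizontal log axis), 1 point per gene; genes with a group listed at 0 have no point. Red and blue points had an authors' q-value below 0.05. Mt2, Srxn1, Hmox1 and Adh7 lie far above the line of no change, and Ier5l, Ercc2, Junb and Ctgf far below it.

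Fold changes moved with the GC content of the transcripts. Over 11694 genes, Spearman's rho was -0.42 between fold change and GC content and 0.17 between fold change and transcript length; all genes share the same libraries, so no p is given. Among the 10% of genes of lowest GC content (31.0% to 41.8%) the median log2 fold change was 0.25, 42.0% rose and 17.5% fell. Among the 10% of highest GC content (58.0% to 69.2%) the median was -1.14, 6.07% rose and 71.7% fell. Control cells had medians of 0.15 and -1.12 in the same classes. With GC content and length taken out by local regression, 3148 genes rose (27.3%) and 2719 fell (23.6%) of 11544; of 7289 calls with a corrected value, 4544 kept their direction and call and 127 passed in the opposite direction. A corrected call sets the corrected log2 fold change against a standard error taken from the uncorrected one and its deposited p-value. For the 4506 genes at the lowest p-value that standard error is only an upper bound. A call not kept there does not show that no change was left. The part of GC content in the response was not tested. Where the correction changed a list's counts, the corrected ones stand beside them in the same order, with the number of genes where it differs, as "after correction", and for a gene whose call was not kept the corrected log2 fold change stands in brackets.

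**Figure D2:**
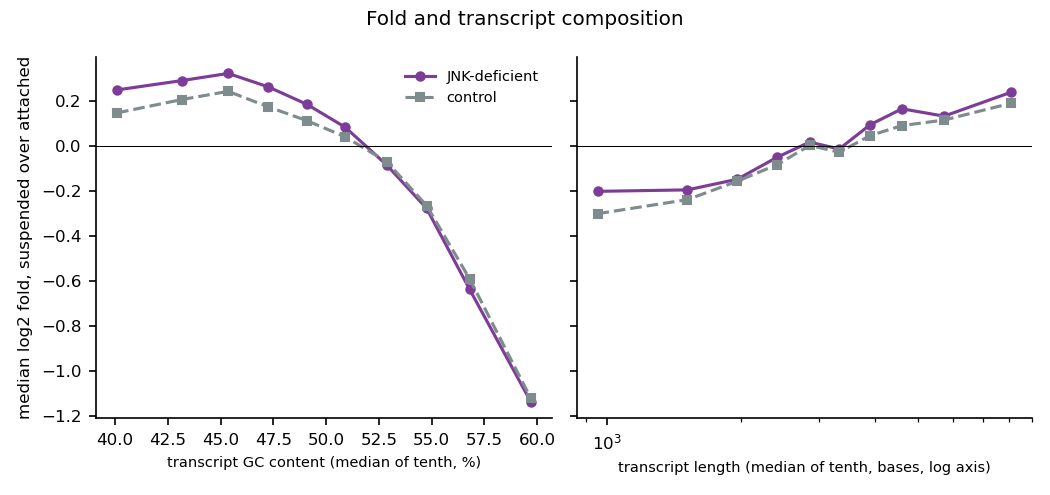
Median log2 fold change with suspension in 10 classes of equal size by transcript GC content (left, percent) or transcript length (right, bases, log axis), in JNK-deficient cells (circles) and control cells (squares). In both genotypes the median falls from above 0 in the classes of low GC content to below -1 in the highest class, and the change with length is smaller.

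Of 13 integrin genes tested, 7 fell and 4 rose (median log2 fold change -0.40; 5 and 3 after correction). Itga3, the laminin-binding alpha-3 subunit (chromosome 11, 95044482 to 95076801 on mm10), fell from 547 to 90.3 FPKM (log2 fold change -2.60). Itgb5, the beta-5 subunit that pairs with alpha-v, fell from 136 to 62.3 FPKM (log2 fold change -1.12), a call not kept after correction (-0.47). Itga1, a collagen receptor subunit joined with Pelo in 1 entry, fell from 54.5 to 28.7 FPKM (log2 fold change -0.92). In the other direction Itga6, the laminin-binding partner of beta-4 in hemidesmosomes, rose from 16.6 to 51.4 FPKM (log2 fold change 1.63), and Itga5, the fibronectin receptor subunit, rose from 2.84 to 4.75 FPKM (log2 fold change 0.74). The share of integrin genes that rose, 30.8%, was near the 31% of all tested genes, and 53.8% fell, against 30.6% of all. Of the laminin-binding subunits named, Itga3 fell and Itga6 rose.

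Focal adhesion genes had 14 of 21 lower and 2 higher (median -0.72; 11 and 2 after correction). Tln2, a talin that activates integrins from inside the cell, fell from 30.96 to 4.68 FPKM (log2 fold change -2.73). Its relative Tln1 fell from 29.2 to 8.72 FPKM (log2 fold change -1.74). Zyx, which encodes zyxin of tension-bearing adhesions and overlaps the locus of Epha1, fell from 61.4 to 20.2 FPKM (log2 fold change -1.61). Bcar1, the scaffold p130Cas, fell from 114 to 35.9 FPKM (log2 fold change -1.66), a call not kept after correction (-0.48). Vcl, which encodes vinculin, rose from 123 to 212 FPKM (log2 fold change 0.79), against the direction of most of the list.

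Among matrix genes 10 of 18 fell and 3 rose (median -0.68; 6 and 3 after correction). Thbs1, the matricellular protein thrombospondin-1 (chromosome 2, 118111922 to 118127133 on mm10), fell from 747 to 57.03 FPKM (log2 fold change -3.71). Hspg2, the basement membrane proteoglycan perlecan, fell from 11.6 to 2.37 FPKM (log2 fold change -2.29). The laminin chains Lamb2 and Lama5 fell, Lamb2 from 36.6 to 10.3 FPKM (log2 fold change -1.83) and Lama5 from 83.3 to 25.7 FPKM (log2 fold change -1.70). None of these 3 calls was kept after correction (-0.96, -0.91 and -0.57). Lamc1, the gamma chain that these laminins share, rose from 11.6 to 44.6 FPKM (log2 fold change 1.95), and Nid1, which links laminin to collagen IV, rose from 1.87 to 4.55 FPKM (log2 fold change 1.29). Before correction, chains that form 1 laminin trimer thus moved in opposite directions.

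Matrix proteases and their inhibitors had 5 of 15 higher and 4 lower (median -0.08; 5 and 6 after correction). Plat, tissue plasminogen activator, fell from 1229 to 413 FPKM (log2 fold change -1.57), and Plaur, the receptor for urokinase, fell from 241 to 60.6 FPKM (log2 fold change -1.99). Plau, urokinase itself, rose from 639 to 1144 FPKM (log2 fold change 0.84). Timp3, an inhibitor of metalloproteinases whose locus overlaps Syn3, fell from 112 to 23.6 FPKM (log2 fold change -2.25). Adamts1, a secreted metalloproteinase, rose from 17.7 to 53.6 FPKM (log2 fold change 1.60), while in control cells it was at 70.5 and 68.6 FPKM.

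Of 21 SRF and actin genes, 13 fell and 4 rose (median -0.57), and after correction 8 fell and 5 rose. Actb, beta-actin, fell from 1152 to 419.8 FPKM (log2 fold change -1.46). Fhl2, a LIM-domain coactivator, fell from 85.6 to 28.6 FPKM (log2 fold change -1.58). Srf, whose promoter with 2 CArG boxes is shown above, fell from 15.5 to 5.74 FPKM (log2 fold change -1.43), but after correction for GC content and length its log2 fold change was 0.45. Mkl1, which encodes the actin-regulated SRF coactivator MRTF-A and overlaps Sgsm3, fell from 18.9 to 6.28 FPKM (log2 fold change -1.59), a call not kept after correction (-0.70). The thymosins Tmsb4x and Tmsb10, which bind actin monomers, rose, Tmsb4x from 1420.4 to 2117 FPKM (log2 fold change 0.58) and Tmsb10 from 322 to 394 FPKM (log2 fold change 0.29, q = 0.0232 in the authors' deposited table).

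Of 19 YAP targets 13 fell and 4 rose (median -0.63; 12 and 6 after correction), and their summed level dropped from 1959 to 468 FPKM. Ctgf, a matricellular growth factor (chromosome 10, 24589305 to 24598682 on mm10), fell from 979 to 43.2 FPKM (log2 fold change -4.50). Amotl2, an angiomotin that itself restrains YAP, fell from 159 to 6.98 FPKM (log2 fold change -4.51). Cyr61, a relative of Ctgf, fell from 124 to 6.36 FPKM (log2 fold change -4.28), and Ankrd1, an ankyrin repeat protein, fell from 121 to 6.23 FPKM (log2 fold change -4.27). Igfbp3, which binds insulin-like growth factors, rose from 0.652 to 3.26 FPKM (log2 fold change 2.32), and F3, tissue factor, rose from 48.97 to 101 FPKM (log2 fold change 1.05). Control cells had the same list counts, 13 lower and 4 higher, and no gene of the list passed the test of a difference between the genotypes described further on.

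The feedback genes that ERK induces mostly fell, 15 of 19 against 3 that rose (median -1.05; 12 and 3 after correction). Dusp6, the phosphatase that acts on ERK, fell from 76.02 to 5.96 FPKM (log2 fold change -3.67). Spry1, a Sprouty inhibitor of receptor signalling, fell from 17.6 to 3.18 FPKM (log2 fold change -2.47). Dusp5, a nuclear ERK phosphatase, fell from 20.1 to 5.46 FPKM (log2 fold change -1.88), and Phlda1 fell from 44.8 to 7.95 FPKM (log2 fold change -2.49). Dusp4 rose from 23.8 to 84.4 FPKM (log2 fold change 1.83), and Dusp10, a phosphatase that acts on JNK and p38, rose from 1.83 to 13.2 FPKM (log2 fold change 2.85). The genes of phosphatases for MAP kinases therefore did not all follow the rest of the list.

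The EGF receptor family and its ligands had 5 of 12 higher and 4 lower (median 0.02). Hbegf, a ligand released at the cell surface, fell from 185 to 30.4 FPKM (log2 fold change -2.61). Btc, betacellulin, rose from 1.47 to 5.26 FPKM (log2 fold change 1.84), and Areg, amphiregulin, rose from 1.47 to 4.11 FPKM (log2 fold change 1.49, q = 0.000526 in the authors' deposited table). Erbb3, a receptor that couples to PI3K, rose from 21.4 to 48.8 FPKM (log2 fold change 1.19).

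FOXO targets and insulin signalling genes had 10 of 20 higher and 5 lower (median 0.51; 12 and 5 after correction). Fbxo32, the ubiquitin ligase atrogin-1, rose from 1.43 to 11.6 FPKM (log2 fold change 3.01). Pdk4, which restrains pyruvate oxidation, rose from 5.25 to 33.1 FPKM (log2 fold change 2.66). Irs2, an insulin receptor substrate, rose from 2.21 to 6.304 FPKM (log2 fold change 1.51). Pik3ip1, an inhibitor of PI3K whose locus spans several other genes so that its reads may be shared, rose from 1.37 to 21.9 FPKM (log2 fold change 3.99, q = 0.0213 in the authors' deposited table). Sgk1, a kinase related to AKT, fell from 20.8 to 11.2 FPKM (log2 fold change -0.89). Control cells had 13 of 20 genes of this list higher and 2 lower. By the test of a difference between the genotypes, 1 of 20 had a higher fold change without JNK and 1 a lower one.

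Of 12 AP-1 genes 5 fell and 4 rose (41.7% and 33.3%, against 30.6% and 31% of all tested genes). Their median was -0.41, and after correction 2 fell and 5 rose (median 0.36). Junb (chromosome 8, 84974484 to 84978748 on mm10) fell from 138 to 3.13 FPKM (log2 fold change -5.46), among the 12 largest falls. Fos fell from 4.56 to 2.202 FPKM (log2 fold change -1.05), and its relative Fosb rose from 0.481 to 2.98 FPKM (log2 fold change 2.63). Atf3, a stress-induced partner of AP-1 factors, rose from 3.16 to 18.4 FPKM (log2 fold change 2.54), beside 10.3 to 83.01 FPKM in control cells. Of 21 other immediate early genes 12 fell and 5 rose (median -0.56; 9 and 6 of 20 after correction). Ier2 fell from 27.7 to 2.87 FPKM (log2 fold change -3.27), Arc, known from synapses, fell from 57.1 to 2.58 FPKM (log2 fold change -4.47), and Myc fell from 50.8 to 13.9 FPKM (log2 fold change -1.87). Klf2, a zinc finger factor, rose from 0.687 to 4.34 FPKM (log2 fold change 2.66).

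Of the 12 largest rises among genes with at least 0.5 FPKM in the lower and 5 FPKM in the higher group, predicted genes and pseudogenes left out, 7 were genes of the zinc and NRF2 lists, which were chosen with these results known. Of 11 metallothionein and zinc genes, 7 rose and 2 fell (median 0.77; 4 and 2 after correction). Mt2 (chromosome 8, 94172618 to 94173567 on mm10), with 6 metal response elements in the promoter shown above, rose from 2.28 to 365 FPKM (log2 fold change 7.32), the largest of these rises. Its neighbour Mt1 (chromosome 8, 94179089 to 94180327 on mm10) rose from 5.82 to 186 FPKM (log2 fold change 5.0). Slc30a1, which exports zinc from the cell, rose from 1.702 to 31.6 FPKM (log2 fold change 4.21), and Slc39a10, which imports it, fell from 27.99 to 9.72 FPKM (log2 fold change -1.53). The exporter and the importer thus moved in opposite directions.

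NRF2 targets had the highest median among lists of at least 5 tested genes, 1.34, with 21 of 27 genes higher and 2 lower (22 and 1 after correction), and their summed level went from 4734 to 14979 FPKM. Hmox1, heme oxygenase (chromosome 8, 75093618 to 75100593 on mm10), rose from 62.2 to 2361 FPKM (log2 fold change 5.25). Srxn1 (chromosome 2, 152105730 to 152111353 on mm10) rose from 9.797 to 481 FPKM (log2 fold change 5.62). Gclc, the catalytic subunit of glutathione synthesis, rose from 58.5 to 1381 FPKM (log2 fold change 4.56). The glutathione transferases Gsta4 and Gstp2 rose, Gsta4 from 11.97 to 389.9 FPKM (log2 fold change 5.03) and Gstp2 from 8.15 to 292 FPKM (log2 fold change 5.16), and reads of Gstp2 may be shared with its near-identical copy Gstp1. Fth1, the ferritin heavy chain, rose from 883 to 4125 FPKM (log2 fold change 2.22). Keap1, the sensor that holds NRF2 in check, fell from 23.5 to 12 FPKM (log2 fold change -0.97), a call not kept after correction (-0.15), and Me1, malic enzyme, fell from 401 to 279.7 FPKM (log2 fold change -0.52). Control cells had 19 of these 27 genes higher and 3 lower, with a median of 1.33. Other metabolic and transport genes outside the list were among the 12 largest rises. Cbr3, a carbonyl reductase, rose from 1.296 to 36.1 FPKM (log2 fold change 4.80), and Ugt2b34, a glucuronosyltransferase, rose from 0.973 to 29.1 FPKM (log2 fold change 4.90). Slc40a1, the iron exporter ferroportin, rose from 8.98 to 204 FPKM (log2 fold change 4.51).

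The other stress lists differed in direction. Heat shock genes had 12 of 19 lower and 3 higher (median -0.43; 9 and 4 of 18 after correction). Hspa1b, an inducible HSP70 whose reads may be shared with its near-identical copy Hspa1a, fell from 239 to 17.96 FPKM (log2 fold change -3.74). Hsph1, an HSP110 chaperone, fell from 446 to 124 FPKM (log2 fold change -1.84), and Hsf1, the heat shock factor, fell from 37.1 to 11.9 FPKM (log2 fold change -1.63), a call not kept after correction (-0.81). Bag3, a co-chaperone of selective autophagy, rose from 27.1 to 47.3 FPKM (log2 fold change 0.80). Of 26 genes induced by unfolded proteins or the integrated stress response, 10 rose and 10 fell (median -0.13; 9 and 7 after correction). Ddit3, the factor CHOP, whose locus overlaps Mars, rose from 41.9 to 98.3 FPKM (log2 fold change 1.23). Chac1, which degrades glutathione, fell from 40.4 to 9.58 FPKM (log2 fold change -2.07). Phgdh, of serine synthesis, fell from 362 to 107 FPKM (log2 fold change -1.76), and Shmt2, of mitochondrial one-carbon metabolism, fell from 57.9 to 11.6 FPKM (log2 fold change -2.32). Of 20 p53 targets 11 rose and 5 fell (median 0.49; 10 and 3 of 19 after correction). Trp53inp1 rose from 20.8 to 82.4 FPKM (log2 fold change 1.99), Sesn1, a sestrin that restrains mTORC1, rose from 4.48 to 11.1 FPKM (log2 fold change 1.31), and Cdkn1a, the cell cycle inhibitor p21, rose from 203 to 427 FPKM (log2 fold change 1.07). Gdf15, a secreted stress factor, fell from 581 to 27.9 FPKM (log2 fold change -4.38). Ddit4, another inhibitor of mTORC1, fell from 152 to 44.1 FPKM (log2 fold change -1.78), a call not kept after correction (-0.91).

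**Figure D3:**
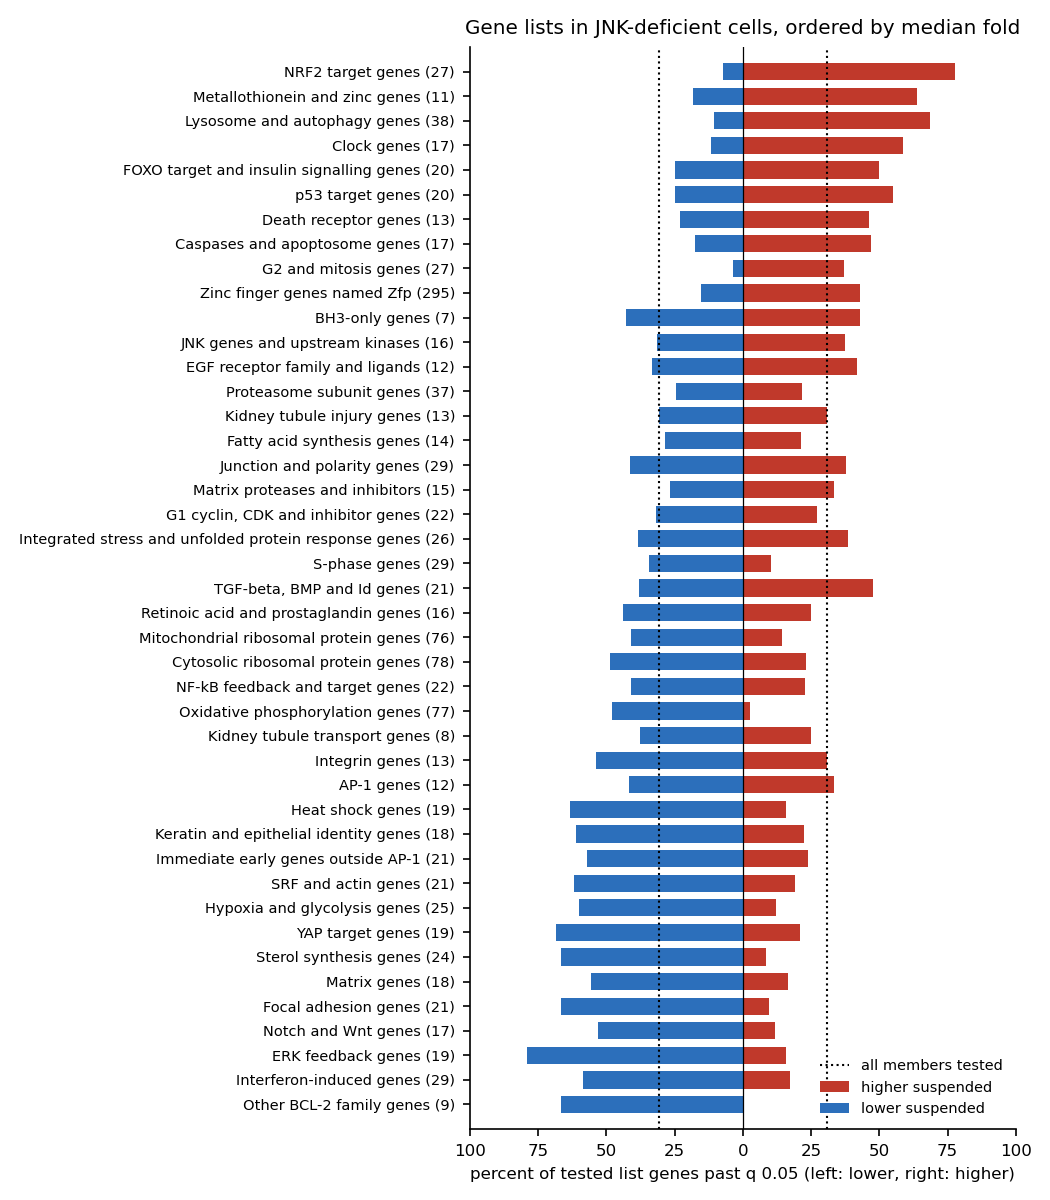
Percent of the tested genes of each list that were higher (red, right) or lower (blue, left) in suspended than in attached JNK-deficient cells at an authors' q-value below 0.05, for lists of at least 5 tested genes (number in brackets), ordered by median log2 fold change. Dotted lines mark the 31% and 30.6% of all tested genes. NRF2 targets stand at the top, and BCL-2 family, interferon-induced and ERK feedback genes at the bottom.

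Genes of the death machinery moved in both directions. Among the 7 BH3-only genes tested, whose proteins start apoptosis by acting on other BCL-2 proteins, 3 rose and 3 fell (median 0.09; 2 and 1 after correction), and 2 rose and 1 fell after correction. Bmf, which is held at the cytoskeleton until cells detach, rose from 1.46 to 13.3 FPKM (log2 fold change 3.18). Bcl2l11, which encodes Bim, a FOXO target, rose from 5.45 to 26.6 FPKM (log2 fold change 2.29). Pmaip1, which encodes Noxa, rose from 40.05 to 49.4 FPKM (log2 fold change 0.30, q = 0.0249 in the authors' deposited table), a call not kept after correction (0.01). Bad, whose locus overlaps Gpr137, fell from 56.7 to 14.7 FPKM (log2 fold change -1.95). Bbc3, which encodes Puma, fell from 10.1 to 2.79 FPKM (log2 fold change -1.86), but was at 0.20 after correction. Bik fell from 9.45 to 2.96 FPKM (log2 fold change -1.67), a call not kept after correction (-0.51), and Bid was at 74.1 and 78.7 FPKM (q = 0.539 in the authors' deposited table). None of the 7 passed the test of a difference between the genotypes.

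The other BCL-2 family genes had 6 of 9 lower and 0 higher (median -1.54; 4 and 1 after correction), and both protective and killing members were among those that fell. Bcl2 fell from 6.32 to 1.13 FPKM (log2 fold change -2.48), and Bcl2l1, which encodes the protective Bcl-xL, fell from 133 to 43.6 FPKM (log2 fold change -1.61). Bok, a relative of the pore formers Bax and Bak, fell from 235 to 30.9 FPKM (log2 fold change -2.93), a call not kept after correction (-1.50). Of 17 caspase and apoptosome genes 8 rose (47.1%, against 31% of all tested genes) and 3 fell (17.6%, against 30.6%). Their median was 0.38, and after correction 7 rose and 4 fell. Casp4, an inflammatory caspase, rose from 4.04 to 30.1 FPKM (log2 fold change 2.90). Apaf1, the core of the apoptosome, rose from 5.74 to 12.9 FPKM (log2 fold change 1.17). Cflar, which encodes the caspase-8 inhibitor FLIP, fell from 33.6 to 18 FPKM (log2 fold change -0.90). Death receptor genes had 6 of 13 higher and 3 lower (46.2% and 23.1%, median 0.42), with 5 higher and 2 lower after correction. Fas rose from 0.857 to 7.62 FPKM (log2 fold change 3.15). Tnfrsf12a, the receptor Fn14, whose locus overlaps 3 others, fell from 364 to 66.96 FPKM (log2 fold change -2.44), and the adaptor Tradd fell from 15.1 to 5.32 FPKM (log2 fold change -1.51), a call not kept after correction (-0.73).

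Lysosomal and autophagy genes rose widely, 26 of 38 against 4 that fell (median 0.69; 30 and 2 after correction), and their summed level went from 3616 to 6534 FPKM. Atp6v0d2, a subunit of the proton pump, rose from 0.0455 to 11.5 FPKM (log2 fold change 7.98, q = 0.0131 in the authors' deposited table). Rragd, the Rag GTPase that brings mTORC1 to the lysosome, rose from 1.58 to 9.61 FPKM (log2 fold change 2.60). Fnip2, a partner of folliculin, rose from 5.27 to 28.3 FPKM (log2 fold change 2.42), and Gla, the enzyme alpha-galactosidase, rose from 4.73 to 23.5 FPKM (log2 fold change 2.31). Tfeb, the factor that drives this program, fell from 6.85 to 1.87 FPKM (log2 fold change -1.87), and Neu1, a sialidase, fell from 34.03 to 19 FPKM (log2 fold change -0.84). Neither of these 2 falls was kept after correction (-0.16 and -0.19).

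Sterol synthesis genes had 16 of 24 lower and 2 higher (median -0.68; 15 and 1 after correction). Mvd, of the mevalonate pathway, fell from 17.3 to 2.31 FPKM (log2 fold change -2.90), and Lss, which closes the sterol ring, fell from 17.5 to 5.598 FPKM (log2 fold change -1.64). Fatty acid synthesis genes had 3 of 14 higher and 4 lower (median -0.04; 2 and 3 after correction). Fasn, fatty acid synthase, fell from 27 to 5.37 FPKM (log2 fold change -2.33). Srebf1, which overlaps Rai1, fell from 23.3 to 6.88 FPKM (log2 fold change -1.76), a call not kept after correction (-0.91). Hypoxia and glycolysis genes had 15 of 25 lower and 3 higher (median -0.63; 10 and 4 after correction). Hk2, a hexokinase, fell from 46.3 to 9.11 FPKM (log2 fold change -2.34), and Vegfa fell from 123 to 26.7 FPKM (log2 fold change -2.21). Adm, adrenomedullin, rose from 21.8 to 57.8 FPKM (log2 fold change 1.41), and Bnip3, a mitophagy receptor, rose from 19.1 to 37.1 FPKM (log2 fold change 0.96).

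Of 18 keratin and epithelial identity genes, 11 fell and 4 rose (median -0.50), and after correction 4 fell and 5 rose (median 0.00). Pax2, a kidney developmental factor, fell from 125 to 12.3 FPKM (log2 fold change -3.34), and its relative Pax8 fell from 101 to 36.7 FPKM (log2 fold change -1.46). Krt7 fell from 1285 to 323 FPKM (log2 fold change -1.99). Among 29 junction and polarity genes 11 rose and 12 fell (median -0.07; 12 and 8 after correction). Of the claudins of tight junctions, Cldn4 fell from 1278 to 449 FPKM (log2 fold change -1.51) and Cldn3 fell from 39.4 to 3.43 FPKM (log2 fold change -3.52), of which the call of Cldn3 was not kept after correction (-1.80). Cldn1 rose from 0.903 to 3.58 FPKM (log2 fold change 1.99). The desmosomal cadherins Dsc2 and Dsg2 rose, Dsc2 from 0.943 to 7.31 FPKM (log2 fold change 2.96) and Dsg2 from 16.05 to 40.1 FPKM (log2 fold change 1.32), and so did Cdh6, a cadherin of the kidney tubule, from 14.9 to 46.1 FPKM (log2 fold change 1.62). Vim, vimentin, rose from 3.78 to 15.2 FPKM (log2 fold change 2.01).

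Kidney transport genes had 2 of 8 tested higher and 3 lower (median -0.28; 2 and 2 after correction), and only 8 of 25 listed reached the test. Aqp1, the water channel, fell from 342 to 192 FPKM (log2 fold change -0.83), and Umod, uromodulin, rose from 1.06 to 3.98 FPKM (log2 fold change 1.90). Injury genes had 4 of 13 higher and 4 lower (median -0.04; 4 and 3 after correction). Cd44, a hyaluronan receptor, rose from 9.48 to 62.2 FPKM (log2 fold change 2.71). Havcr1, which encodes the injury marker KIM-1, fell from 2.27 to 0.692 FPKM (log2 fold change -1.71), beside 38.3 and 18.3 FPKM in control cells.

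Interferon-induced genes mostly fell. In JNK-deficient cells 17 of 29 fell and 5 rose (median -1.10; 17 and 1 after correction), and in control cells 9 fell and 12 rose (median 0.20). Isg15, with 3 overlapping interferon response elements in its promoter, fell from 55.7 to 10.6 FPKM (log2 fold change -2.40). Usp18, which removes ISG15 from proteins, fell from 16.9 to 4.55 FPKM (log2 fold change -1.89), beside 21.02 and 18.6 FPKM in control cells. Dhx58, a regulator of RNA sensing, fell from 3.53 to 1.01 FPKM (log2 fold change -1.80), and the chemokine gene Cxcl10 fell from 95.3 to 27.6 FPKM (log2 fold change -1.79). Irf1 rose from 12.8 to 28.4 FPKM (log2 fold change 1.15), and Gbp2, a guanylate-binding protein, rose from 31.5 to 42.9 FPKM (log2 fold change 0.44, q = 0.00123 in the authors' deposited table), a call not kept after correction (0.15). Rsad2, Oasl2, Rtp4, Irf7, Ifit3 and Icam1 are named below because they passed the test of the difference, chosen after their values were seen.

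NF-kB feedback and target genes had 9 of 22 lower and 5 higher (median -0.25; 7 and 8 after correction). Ccl20, a chemokine gene, fell from 140.2 to 16.5 FPKM (log2 fold change -3.09), and Nfkbia, which encodes the inhibitor of NF-kB, fell from 34.3 to 15.7 FPKM (log2 fold change -1.13). Vcam1, an adhesion molecule, rose from 3.24 to 23.8 FPKM (log2 fold change 2.88). Ptgs2, which encodes COX-2, rose from 8.22 to 35.4 FPKM (log2 fold change 2.11), and Csf1, the macrophage growth factor, rose from 27.01 to 115 FPKM (log2 fold change 2.09). Leukocyte markers moved beside these lists. Ptprc, Csf1r and Cd68, a lysosomal protein, rose, Ptprc from 1.05 to 10.7 FPKM (log2 fold change 3.34), Csf1r from 1.47 to 7.97 FPKM (log2 fold change 2.44) and Cd68 from 14.03 to 30.8 FPKM (log2 fold change 1.14), while Cd14 fell from 61.3 to 28.4 FPKM (log2 fold change -1.11). Of the 9 leukocyte markers 4 were at 1 FPKM or more in both states, Tyrobp was listed at 0, and Itgam, Cd3e, Lyz2 and Laptm5 stayed below 1 FPKM. The summed level of the 9 was 77.9 FPKM attached and 78.3 FPKM suspended, and their part in the result was not tested.

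Markers of other cell types were low. The 6 endothelial markers were all below 1 FPKM in both states, with sums of 0.143 and 1.43 FPKM. Esam and Flt1, from a longer endothelial list, rose, Esam from 0.542 to 6.05 FPKM (log2 fold change 3.48) and Flt1 from 1.04 to 4.803 FPKM (log2 fold change 2.21). Of 7 fibroblast markers 1 reached 1 FPKM, in suspended cells, with sums of 0.524 and 1.68 FPKM, and of the podocyte markers Synpo, an actin-binding protein, rose from 0.961 to 10.7 FPKM (log2 fold change 3.48) while Nphs1 stayed near 0. Meox2, a mesenchymal homeobox gene, fell from 12.3 to 0.852 FPKM (log2 fold change -3.85), beside 0.904 and 0.138 FPKM in control cells.

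Of 21 TGF-beta, BMP and Id genes 10 rose and 8 fell (median -0.18; 8 and 8 after correction, median 0.21). Smad6 and Smad7, inhibitors of BMP and TGF-beta signalling, fell, Smad6 from 7.45 to 0.392 FPKM (log2 fold change -4.25) and Smad7 from 14.1 to 2.14 FPKM (log2 fold change -2.72). Id3, a BMP target, fell from 4.22 to 0.459 FPKM (log2 fold change -3.20, q = 0.000526 in the authors' deposited table), and Bmp7 fell from 11.9 to 2.91 FPKM (log2 fold change -2.03). Notch and Wnt genes had 9 of 17 lower and 2 higher (median -0.78; 8 and 3 after correction). Jag2, a Notch ligand, fell from 15.7 to 1.63 FPKM (log2 fold change -3.26), beside 0.872 and 0.359 FPKM in control cells. The Notch targets Hey1 and Hes1 fell, Hey1 from 8.48 to 1.17 FPKM (log2 fold change -2.86) and Hes1 from 43.9 to 11.3 FPKM (log2 fold change -1.95). Clock genes had 10 of 17 higher and 2 lower (median 0.61; 12 and 1 after correction). Per3 rose from 1.07 to 4.42 FPKM (log2 fold change 2.05), and Nr1d2, a repressor within the clock, rose from 15.2 to 48.2 FPKM (log2 fold change 1.66). Arntl, which encodes the activator BMAL1, fell from 8.35 to 4.75 FPKM (log2 fold change -0.81, q = 0.000275 in the authors' deposited table).

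Among cell cycle lists, the G1 genes had 6 of 22 higher and 7 lower (median -0.11; 4 and 4 after correction). Ccnd1, cyclin D1, whose locus overlaps Oraov1, fell from 671 to 86.2 FPKM (log2 fold change -2.96). Ccnd3, which overlaps Bysl, fell from 56.7 to 10.7 FPKM (log2 fold change -2.41), and Ccnd2 fell from 3.96 to 0.959 FPKM (log2 fold change -2.05). S-phase genes had 10 of 29 lower (34.5%, against 30.6% of all tested genes) and 3 higher, with a median of -0.17. After correction 7 fell and 2 rose, of 27. Control cells had 18 lower and 3 higher, and no gene of the list passed the test of a difference between the genotypes. Tyms, thymidylate synthase, fell from 9.69 to 2.57 FPKM (log2 fold change -1.91), and Cdt1, which licenses origins, fell from 8.202 to 3.39 FPKM (log2 fold change -1.28), a call not kept after correction (-0.28). Genes of G2 and mitosis had 10 of 27 higher and 1 lower (median 0.29; 7 and 2 of 26 after correction). Ndc80, of the kinetochore, rose from 6.16 to 13.3 FPKM (log2 fold change 1.11), and Prc1, of the central spindle, rose from 15.98 to 32.5 FPKM (log2 fold change 1.02).

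Housekeeping lists had small medians. Cytosolic ribosomal protein genes had 38 of 78 lower and 18 higher, with a median of -0.22. After correction 27 fell and 17 rose. Control cells had 53 lower and 4 higher. By the test of a difference between the genotypes, 2 of 78 had a higher fold change without JNK and 0 a lower one. Rpl36 fell from 751 to 16.6 FPKM (log2 fold change -5.50), far from the rest of its list, and Rps27 rose from 1525 to 3110.1 FPKM (log2 fold change 1.03). Mitochondrial ribosomal protein genes had 31 of 76 lower and 11 higher, with the same median of -0.22 (23 and 8 of 74 after correction). Oxidative phosphorylation genes had 37 of 77 lower and 2 higher (median -0.28; 24 and 5 of 75 after correction), and Uqcrq, of complex III, fell from 214 to 16.4 FPKM (log2 fold change -3.71). Proteasome genes had 8 of 37 higher and 9 lower (6 and 5 of 35 after correction), and Psmd11 rose from 63.2 to 151 FPKM (log2 fold change 1.26). Of 295 zinc finger genes named Zfp 127 rose and 45 fell (median 0.27; 98 and 39 of 293 after correction), with Zfp655 from 11.1 to 55.1 FPKM (log2 fold change 2.32).

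Spp1, which encodes osteopontin and had the highest level of the nuclear protein-coding genes named in attached cells, was at 7617 FPKM attached and 7400.2 FPKM suspended (q = 0.854 in the authors' deposited table). Nupr1, a stress-induced chromatin protein, fell from 6224 to 2508 FPKM (log2 fold change -1.31), and Akr1b3, aldose reductase, fell from 5289.6 to 2222 FPKM (log2 fold change -1.25). Fxyd2, the gamma subunit of the sodium pump, fell from 3164 to 1285 FPKM (log2 fold change -1.30), a call not kept after correction (-0.09). The calcium-binding S100a6 was at 5887 and 6101 FPKM (q = 0.745 in the authors' deposited table), and S100a11 rose from 2999 to 3730.4 FPKM (log2 fold change 0.31, q = 0.0093 in the authors' deposited table). Eef1a1, an elongation factor gene that every cell uses, was listed at 0 in attached and at 9204 FPKM in suspended cells and was not tested, so a 0 in these tables can be a missing estimate.

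A few genes crossed from under 0.5 FPKM to 5 FPKM or more, or the reverse. Adh7, an alcohol dehydrogenase that acts on retinol, rose from 0.0791 to 22.5 FPKM (log2 fold change 8.15, q = 0.00263 in the authors' deposited table). Pmp22, a membrane protein best known from myelin, rose from 0.169 to 9.64 FPKM (log2 fold change 5.84). Gpnmb, a lysosomal glycoprotein gene, rose from 0.422 to 8.96 FPKM (log2 fold change 4.41), and Tnip3, whose protein restrains NF-kB signalling, rose from 0.441 to 9.498 FPKM (log2 fold change 4.43). Gsta2 rose from 0.164 to 7.597 FPKM (log2 fold change 5.54, q = 0.0107 in the authors' deposited table), and its reads may be shared with the near-identical Gsta1. In the other direction Ier5l fell from 22.4 to 0.0747 FPKM (log2 fold change -8.23, q = 0.023 in the authors' deposited table) and Ppp1r35 fell from 17.2 to 0.198 FPKM (log2 fold change -6.43, q = 0.00573 in the authors' deposited table), and neither call was kept after correction (-6.43 and -4.56). Gpr30, an oestrogen-binding receptor, fell from 13.4 to 0.434 FPKM (log2 fold change -4.95, q = 0.00167 in the authors' deposited table). Lgsn fell from 7.21 to 0.436 FPKM (log2 fold change -4.05), and Gcnt3, a mucin glycosyltransferase, fell from 6.78 to 0.176 FPKM (log2 fold change -5.26). The loci of Gpr30 and Lgsn overlap other genes.

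Outside the lists, the largest falls included a DNA repair helicase and a nuclease subunit. Ercc2, the helicase XPD, whose locus overlaps Klc3, fell from 309 to 3.68 FPKM (log2 fold change -6.39). Rnaseh2c, of the nuclease that removes RNA from DNA, fell from 41.1 to 0.905 FPKM (log2 fold change -5.50). Prss35, a serine protease relative, fell from 187 to 6.41 FPKM (log2 fold change -4.87), and Kifc3, a kinesin of cell junctions whose locus overlaps another gene, fell from 151 to 5.61 FPKM (log2 fold change -4.75). Erdr1, which lies in the region shared by the sex chromosomes and has copies there, fell from 191 to 1.72 FPKM (log2 fold change -6.80). Il1f6, which encodes the epithelial cytokine IL-36 alpha, rose from 1.33 to 33 FPKM (log2 fold change 4.63), and R3hdm2 rose from 77.1 to 1908 FPKM (log2 fold change 4.63).

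**Figure D4:**
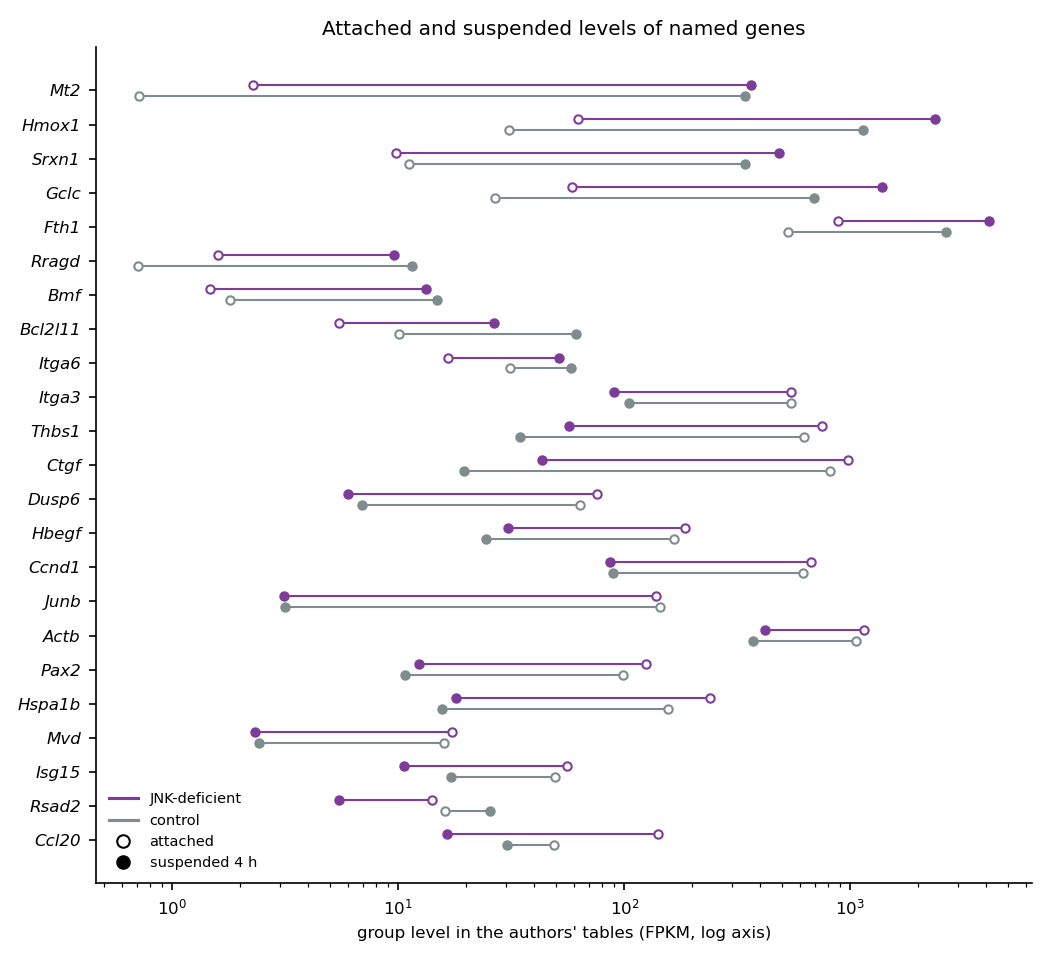
Levels of 23 named genes in FPKM (log axis), attached (open points) joined to suspended (filled points), in JNK-deficient cells (purple) and control cells (grey). Each point is the authors' single value for a group, from a separate table for each genotype. Mt2 to Itga6 are higher suspended in both genotypes, Itga3 to Isg15 and Ccl20 are lower in both, and Rsad2 is lower in JNK-deficient and higher in control cells.

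Most calls were made in both genotypes. Of the 3773 genes that rose in JNK-deficient cells, 3227 also rose in control cells, which is 85.5% of the first list and 83.4% of the 3869 rises in control cells among the same genes. Of the 3722 that fell, 3334 also fell in control cells, 89.6% of them and 79.3% of the 4202 falls in control cells. Opposite calls were made for 9 and 30 genes, and 537 and 358 had no call in control cells. In control cells 32.8% of 12415 tested genes rose and 34.1% fell. The suspension comparisons of the genotypes share no samples.

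Whether the response itself differed was tested gene by gene as the difference of the log2 fold changes, JNK-deficient minus control, with a two-sided z-test whose standard errors (SE) come from the deposited p-values. Each difference below is given with its SE and passed an adjusted p of 0.05. Of the 37 named below, 22 lost the call with standard errors from the suspension tables alone and 11 with those from the genotype tables alone. Of 12409 genes 226 passed (1.82%), 71 with a higher fold change in JNK-deficient cells (0.572%) and 155 with a lower one (1.25%). The median SE was 0.22 on the log2 scale, and for 1721 genes the SE is only an upper bound. The folds had opposite signs for 113 of the 226 genes and the same sign for the other 113. In the authors' deposited table of attached cells, JNK-deficient over control, 92 of the 155 with a lower fold change were higher and 17 lower. Of the 71 with a higher fold change, 32 were lower and 9 higher there. The attached levels are part of the difference itself, so these counts lean this way by construction and are not a separate result. No share over all tested genes is given.

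Interferon-induced genes made up 11 of the 155 lower differences, 11 of 29 tested in the list, and none was higher. Rsad2, the antiviral protein viperin, fell from 14.1 to 5.46 FPKM (log2 fold change -1.37) in JNK-deficient cells and went from 16.1 to 25.5 FPKM in control cells, a difference of -2.03 (SE 0.37). Oasl2 fell from 6.18 to 2.905 FPKM (log2 fold change -1.09), a difference of -1.76 (SE 0.31). Rtp4 fell from 12.4 to 4.12 FPKM (log2 fold change -1.59), a difference of -1.69 (SE 0.38), and Usp18 differed by -1.72 (SE 0.48). Irf7, the factor that amplifies the interferon response, fell from 28.5 to 9.37 FPKM (log2 fold change -1.60), a difference of -0.95 (SE 0.23), and Ifit3 fell from 293 to 102 FPKM (log2 fold change -1.52), a difference of -0.60 (SE 0.17). All of these genes but Usp18 were chosen because they passed this test, so their shared direction is not a separate result. In control cells Irf7 and Ifit3 also fell (log2 fold changes of -0.65 and -0.92). Rsad2 and Oasl2 rose there, and Rtp4 and Usp18 did not pass.

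NF-kB targets followed, with 6 of 22 lower and 0 higher. Icam1, an adhesion molecule, was at 2.83 and 3.65 FPKM without JNK (q = 0.131 in the authors' deposited table) and at 2.13 and 14.5 FPKM in control cells, a difference of -2.40 (SE 0.49). Vcam1 rose in both genotypes, with a difference of -1.86 (SE 0.40). Ccl20 differed by -2.40 (SE 0.47) and Nfkbia by -0.92 (SE 0.21). The chemokine Cxcl5 fell from 38.9 to 19.5 FPKM (log2 fold change -0.99), against a rise from 3.33 to 11.7 FPKM in control cells, a difference of -2.80 (SE 0.51). Outside the list, the neighbouring chemokine gene Cxcl3 was at 1.35 and 0.597 FPKM (q = 0.0544 in the authors' deposited table), a difference of -4.38 (SE 0.94). Tnip3 differed by -2.92 (SE 0.60) and Gpnmb by -2.47 (SE 0.47), though both rose in JNK-deficient cells. Only 4 leukocyte marker genes entered the test of the difference, and none of them passed. The part of leukocytes in these differences was not tested.

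Other genes with a lower fold change without JNK lay in several lists. Sgk1 differed by -1.30 (SE 0.25) and Ccnd2 by -1.73 (SE 0.44). Btg2, a growth inhibitor induced by p53, fell from 39.5 to 28.6 FPKM (log2 fold change -0.47, q = 0.000275 in the authors' deposited table), a difference of -0.85 (SE 0.16). Rragd differed by -1.43 (SE 0.35) and Bnip3 by -0.97 (SE 0.24), both of which rose in each genotype. Ddit4 differed by -0.57 (SE 0.17). Maff, a small partner of NRF2, fell from 19.1 to 13.8 FPKM (log2 fold change -0.46, q = 0.00761 in the authors' deposited table), a difference of -0.74 (SE 0.20); after correction its fold change in JNK-deficient cells was 0.34. The largest lower difference was that of Dtx3, whose locus overlaps Pip4k2c. It was at 43.7 and 30.9 FPKM in JNK-deficient and at 39.2 and 696 FPKM in control cells, a difference of -4.65 (SE 1.07). The calcitonin-related Calcb differed by -3.66 (SE 0.78) and Setd4 by -3.58 (SE 0.78). Ddx5, an RNA helicase whose locus overlaps Ccdc45, rose from 946 to 3209.7 FPKM (log2 fold change 1.76), a difference of -2.73 (SE 0.48).

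Higher fold changes without JNK were fewer. None of those named here kept its call under every setting of the standard errors and centring given at the end. R3hdm2 rose from 77.1 to 1908 FPKM (log2 fold change 4.63) in JNK-deficient and from 67.9 to 143 FPKM in control cells, a difference of 3.56 (SE 0.94). Ptgr1, a reductase of prostaglandins and a known NRF2 target, rose from 1.51 to 19.6 FPKM (log2 fold change 3.70), a difference of 2.05 (SE 0.36). Adamts1 differed by 1.63 (SE 0.41). Srxn1 rose more without JNK, a difference of 0.68 (SE 0.16), and Cdh6 differed by 0.64 (SE 0.18). The thymosins Tmsb4x and Tmsb10 differed by 0.51 (SE 0.15) and 0.52 (SE 0.16). Arhgdig, an inhibitor of small GTPases, rose from 1.91 to 4.28 FPKM (log2 fold change 1.17, q = 0.00242 in the authors' deposited table), a difference of 1.55 (SE 0.42), and the connexin gene Gjb1 rose from 4.31 to 7.88 FPKM (log2 fold change 0.87, q = 0.000275 in the authors' deposited table), a difference of 1.16 (SE 0.34). The matricellular Sparc and the glycosyltransferase Galnt10 did not pass in JNK-deficient cells (log2 fold changes of 0.13 and -0.02) and differed by 1.11 (SE 0.31) and 1.18 (SE 0.35). Hes1 fell less than in control cells, a difference of 1.06 (SE 0.31).

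**Figure D5:**
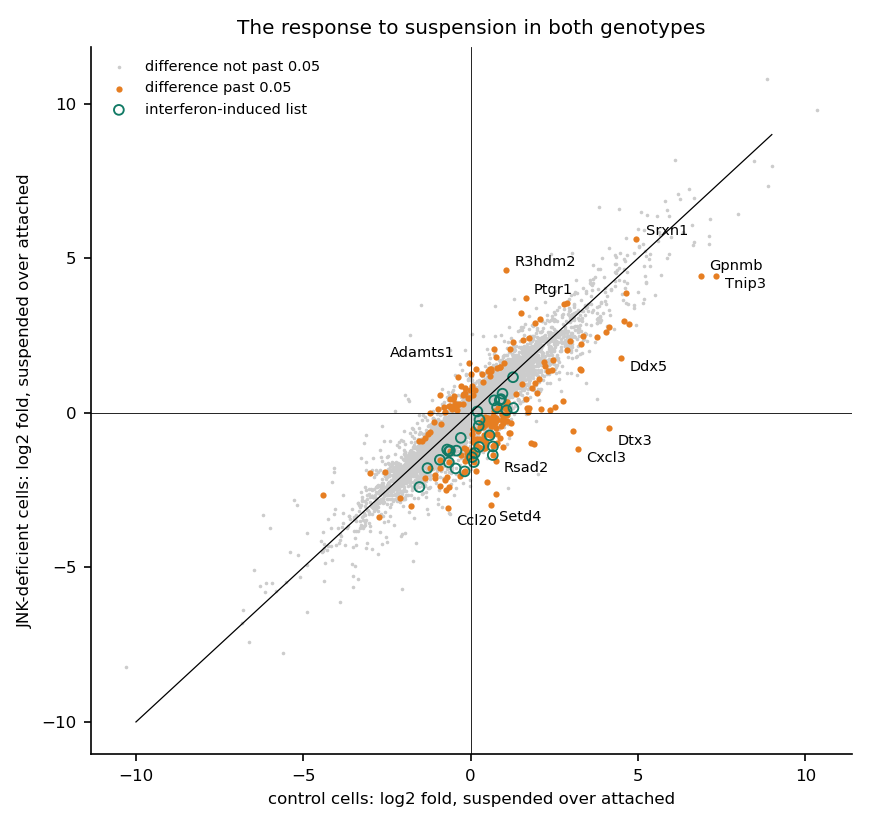
Log2 fold change with suspension in JNK-deficient cells (vertical axis) against control cells (horizontal axis), 1 point per gene, with the diagonal of equal change. Orange points passed the test of the difference, and green rings mark the interferon-induced list. Most points lie along the diagonal, and Rsad2, Cxcl3 and Dtx3 lie below it.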

How the data were processed

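RNA of 12 samples in 4 groups was sequenced on a HiSeq 2000 from column-purified, DNase-treated RNA, per the labels' protocols. For the upstream steps, the authors used TopHat, Bowtie, Cufflinks 1.0.3 and Cuffdiff with the build mm10, per the submitters' processing notes; other versions, the annotation and strandedness are not given in the sources used. The authors deposited 4 tables, 1 for each pair of groups, with 1 FPKM value per group, a log2 ratio, a p-value in steps of 5e-05 and a q-value for each entry. FPKM values of 1 group can differ slightly between tables, so each fold change is taken within a table. Levels of JNK-deficient and control cells printed side by side come from separate tables. Locus starts count from 0 in the files and are given from 1 here.

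Entries with at least 1 FPKM in either state of JNK-deficient cells were kept, and the fold change is the log2 of suspended over attached, computed from the FPKM values with no pseudocount. The main test was the authors' q-value below 0.05. The difference of the suspension effects was tested with a two-sided z-test. Each standard error is the absolute log2 fold change over the normal score that matches the deposited p-value, taken through the suspension tables and the genotype tables, with Benjamini-Hochberg adjustment. GC content and length of the longest transcript in GENCODE were known for 11757 of the genes (96.4%), and their trends were removed by lowess with a span of 0.3. Both steps were tested on simulated data.

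Named genes were Mapk8, Mapk9, the BH3-only genes, the 12 largest rises and falls, the highest levels, genes crossing 0.5 and 5 FPKM, up to 4 genes per direction from each of 47 lists, and the 8 largest differences each way; not all that the rule gave are printed, and some genes are not reported here. The members, lists, tests and naming rule were chosen with earlier results of these data known. Python 3.11.15 was used with pandas 2.3.3, numpy 2.4.6, scipy 1.17.1, statsmodels 0.14.6 and matplotlib 3.10.9.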

Additional observations from a re-analysis of the deposited data

Results flagged for a closer look

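Of the genes named above, 37 were set apart because their response to suspension differed between JNK-deficient and control cells by the z-test of the difference (JNK-deficient minus control log2 fold change, given with its SE, past an adjusted p of 0.05). No explanation was weighed.

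The differences are of fold changes and not of levels. Among chemokine, NF-kB and interferon genes, lower fold changes in JNK-deficient cells were those of Cxcl3, -4.38 (SE 0.94), and Cxcl5, -2.80 (SE 0.51). Ccl20 was at -2.40 (SE 0.47) and Icam1 at -2.40 (SE 0.49). Vcam1 was at -1.86 (SE 0.40), Nfkbia at -0.92 (SE 0.21) and Tnip3 at -2.92 (SE 0.60). Rsad2 was at -2.03 (SE 0.37), Oasl2 at -1.76 (SE 0.31) and Usp18 at -1.72 (SE 0.48). Rtp4 was at -1.69 (SE 0.38), Irf7 at -0.95 (SE 0.23) and Ifit3 at -0.60 (SE 0.17).

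Other lower differences were those of Dtx3, -4.65 (SE 1.07), and Calcb, -3.66 (SE 0.78). Setd4 was at -3.58 (SE 0.78), Ddx5 at -2.73 (SE 0.48) and Gpnmb at -2.47 (SE 0.47). Ccnd2 was at -1.73 (SE 0.44), Rragd at -1.43 (SE 0.35) and Sgk1 at -1.30 (SE 0.25). Bnip3 was at -0.97 (SE 0.24) and Btg2 at -0.85 (SE 0.16). Maff was at -0.74 (SE 0.20) and Ddit4 at -0.57 (SE 0.17).

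Fold changes higher in JNK-deficient cells were those of Tmsb4x, 0.51 (SE 0.15), and Tmsb10, 0.52 (SE 0.16). Cdh6 was at 0.64 (SE 0.18), Srxn1 at 0.68 (SE 0.16) and Hes1 at 1.06 (SE 0.31). Sparc was at 1.11 (SE 0.31), Gjb1 at 1.16 (SE 0.34) and Galnt10 at 1.18 (SE 0.35). Arhgdig was at 1.55 (SE 0.42), Adamts1 at 1.63 (SE 0.41), Ptgr1 at 2.05 (SE 0.36) and R3hdm2 at 3.56 (SE 0.94).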

How the results depend on the processing

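The FPKM limit, a q-value threshold of 0.01, centring on the median and leaving out shared symbols gave 3010 to 4025 genes that rose and 3171 to 3813 that fell. The GC and length correction gave 3148 and 2719, within 1.5 times of the main counts. Asking for at least 2-fold left 1424 and 1603. The 226 differences between genotypes became 97 at an adjusted p below 0.01 and 97 with standard errors from the suspension tables alone, where by construction more of them are upper bounds. The remaining settings of the difference gave 158 with the genotype tables alone, 181 with at least 5 FPKM, 225 with centred effects and 230 with no limit. Of the 37 named differences past the threshold, 22 lost the call with standard errors from the suspension tables alone, 11 with those from the genotype tables alone and 3 with centred effects; Dtx3, Cxcl3, Calcb, Setd4, Rsad2, Oasl2, Usp18, Rtp4 and Sgk1 kept it under all 3. For the fold changes of named genes, a pseudocount of 1, centring and the deposited log2 ratio kept direction and call for 215 of 215. After the GC and length correction 181 kept both, 23 kept direction only, 3 gained a call and 7 changed sign: Mapk8 (-0.24), Srf (0.45), Maff (0.34), Bbc3 (0.20), Bid (-0.0027), Dtx3 (0.49) and Galnt10 (0.57). For each of these the cause was not tested.

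No paired analysis was possible because the deposited tables hold 1 value per group and none per sample. No sample was left out for the same reason, and no SD or outlier is given. The depth per sample is unknown. A p-value at the lowest step, 5e-05, gives a standard error that is only an upper bound. Reads of overlapping and near-identical genes were not separated here.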
